A study of Mus musculus with 12 samples.

Results

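Il1r1 and Osmr encode receptors of inflammatory cytokines, and each was represented by 1 probe on the array, probe 5253 for Il1r1 (Entrez gene 16177) and probe 4926 for Osmr (Entrez gene 18414). They were found by gene symbol in the platform annotation and are 2 of the 5723 genes that it names with a single symbol; 0 further probes carried either symbol together with another. The arrays measured primary mixed glial cells of mice, wild-type or lacking IL-1R1 (IL-1R1-/-), kept for 10 to 12 days after isolation. Each group was treated for 4 hours with vehicle or with rrIL-1β at 10 ng/ml (1 label writes IL-1β), which gives 4 groups: wild-type with vehicle, wild-type with IL-1β, IL-1R1-/- with vehicle and IL-1R1-/- with IL-1β. The treatments were paired within biological replicates, and the results rest on 3 wild-type and 2 IL-1R1-/- pairs, that is 10 arrays. The labels do not state the strain, the age of the animals, the deleted part of Il1r1 or the number of animals per culture. The pair was chosen by their measured signal in wild-type glia with IL-1β against vehicle and against IL-1R1-/- glia. Every value that contains the wild-type IL-1β response is therefore a description with no test.

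IL-1R1, the product of Il1r1, is the signalling receptor for IL-1α and IL-1β. Once ligand is bound it recruits the accessory protein IL1RAP and, through MyD88, IRAK kinases and TRAF6, activates NF-κB and MAP kinases. OSMR, the oncostatin M receptor subunit, pairs with gp130, encoded by Il6st, and signals through JAK kinases and STAT3; it also serves in the receptor for IL-31. In the brain both cytokines act on astrocytes, microglia and endothelial cells during inflammation.

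RefSeq promoter windows (GRCm38.p6, 250 bases before to 50 after a start) were held for both genes, 2 for Il1r1 and 1 for Osmr. The windows shown are those with a match to 1 of 3 motifs of factors downstream of these receptors, and capitals mark the match. The Il1r1 window lies on the + strand at chr1:40266336-40266635, and the Osmr window on the - strand at chr15:6874264-6874563.
Il1r1: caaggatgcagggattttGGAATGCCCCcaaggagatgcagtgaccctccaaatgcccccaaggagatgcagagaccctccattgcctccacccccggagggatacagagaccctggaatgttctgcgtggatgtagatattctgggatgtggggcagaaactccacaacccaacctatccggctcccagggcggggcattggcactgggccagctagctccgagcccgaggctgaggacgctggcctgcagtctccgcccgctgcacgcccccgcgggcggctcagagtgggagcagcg
Osmr: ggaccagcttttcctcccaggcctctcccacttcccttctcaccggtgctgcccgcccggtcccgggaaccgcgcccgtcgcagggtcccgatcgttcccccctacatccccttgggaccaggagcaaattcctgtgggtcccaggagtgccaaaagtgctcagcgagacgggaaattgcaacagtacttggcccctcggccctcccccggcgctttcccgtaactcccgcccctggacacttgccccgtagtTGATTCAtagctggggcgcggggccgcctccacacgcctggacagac
Both strands were searched for the NF-κB motif, for the AP-1 motif TGANTCA and for the STAT motif TTCNNNGAA; the last 2 read the same on both strands, apart from the free bases. The Il1r1 window held the NF-κB motif on the opposite strand (GGGGCATTCC), its first base in the window at -232 from the start. The Osmr window held AP-1 (TGATTCA) from base 4 after the start, and none of the 3 motifs was found in the upstream Il1r1 window at chr1:40224830-40225129. Of 32851 such promoter windows 8.46% held the NF-κB motif, 7.81% the AP-1 motif and 8.3% the STAT motif. A match is a description of the letters only, and which start the glia used was not measured.

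The Il1r1 probe was among the dimmer ones on most arrays. The deposited intensity in the wild-type pairs was 11712 with vehicle and 16753 with IL-1β in replicate 1, 4048 and 7730 in replicate 2, and 15304 and 19227 in replicate 3. In the IL-1R1-/- pairs it was 24654 with vehicle and 25723 with IL-1β in replicate 1, and 46371 and 52279 in replicate 2. Intensities of different pairs cannot be compared directly, because the median intensity of the 10 arrays ran from 4649 to 60399. The Il1r1 signal was 2.07 to 5.77 times the lowest intensity of its array and lay at the 10.9 to 78.4 percentile of that array's probes. The highest percentile came from wild-type replicate 2 with IL-1β, the only array on which the probe exceeded the median probe.

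After quantile normalization the Il1r1 signal of vehicle-treated IL-1R1-/- glia was not detectably different from that of wild-type glia. With vehicle the log2 intensity was 13.80, 14.06 and 13.73 in wild-type replicates 1, 2 and 3, and 13.86 and 14.06 in IL-1R1-/- replicates 1 and 2. The ranges overlapped, and the IL-1R1-/- mean exceeded the wild-type mean by 0.10 ± 0.27 (SE, n = 2 and 3, limma adjusted p = 0.958, 95% interval -0.49 to 0.69). That interval still holds a difference of 1.61-fold. Where the probe lies relative to the deletion is unknown here, so the signal is no check of genotype.

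Osmr, by contrast, stood out with IL-1β in wild-type cells. The deposited intensity was 22284 with vehicle and 69450 with IL-1β in wild-type replicate 1, 4269 and 11900 in replicate 2, and 38707 and 66448 in replicate 3. In IL-1R1-/- glia it was 50560 with vehicle and 49009 with IL-1β in replicate 1, and 95615 and 73284 in replicate 2. In these deposited values every wild-type pair was higher with IL-1β, and both IL-1R1-/- pairs were lower. After normalization the IL-1R1-/- pairs had log2 changes of 0.03 and -0.26. The Osmr signal was 2.49 to 13.6 times the lowest intensity of its array.

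On the normalized log2 scale Osmr was 14.61, 14.17 and 15.13 in the wild-type vehicle arrays and 16.12, 15.82 and 16.12 in the wild-type IL-1β arrays. It was 14.91 and 14.97 in the IL-1R1-/- vehicle arrays, and 14.94 and 14.70 in the IL-1R1-/- IL-1β arrays. All 3 wild-type IL-1β arrays lay above the other 7 arrays. The share of probes with that order was not counted, and nothing is read from it, because these arrays brought Osmr into view. Ordered by mean, the groups were wild-type with IL-1β (16.02 ± 0.18 SD, n = 3), IL-1R1-/- with vehicle (14.94 ± 0.04, n = 2), IL-1R1-/- with IL-1β (14.82 ± 0.17, n = 2) and wild-type with vehicle (14.64 ± 0.48, n = 3). The arrays of the last 3 groups overlapped one another. For Il1r1 the order was wild-type with IL-1β (14.44 ± 0.52), IL-1R1-/- with IL-1β (14.06 ± 0.15), IL-1R1-/- with vehicle (13.96 ± 0.14) and wild-type with vehicle (13.87 ± 0.18), and each group overlapped the next.

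**Figure D1:**
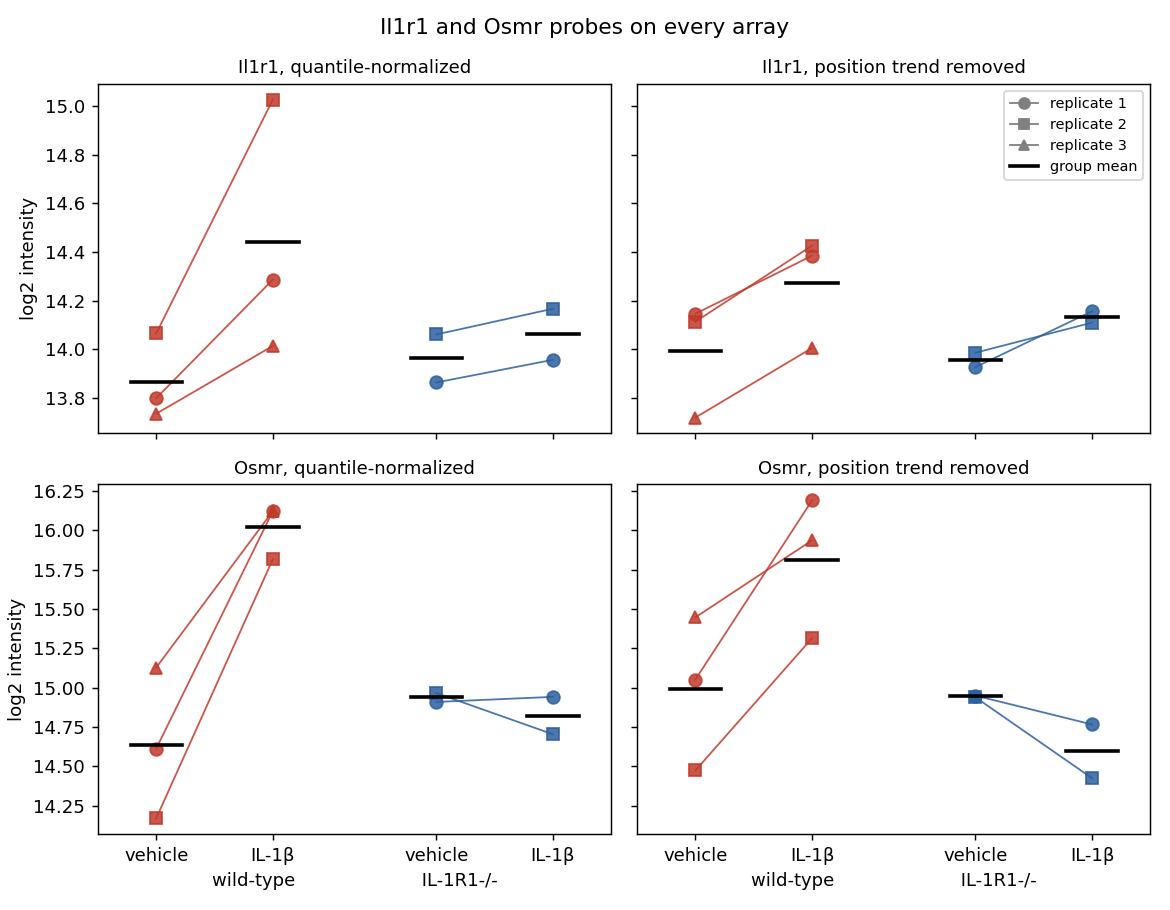
The log2 intensity of the Il1r1 probe (upper panels) and the Osmr probe (lower panels) on each of the 10 arrays, after quantile normalization (left) and with the position trend also removed (right); lines join the arrays of a pair, symbols give the replicate and black bars the group means. The 3 wild-type IL-1β arrays lie highest for Osmr on the left, between 15.82 and 16.12, and on the right the lowest of them (15.31) falls below the highest wild-type vehicle array (15.45).

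A further feature of these arrays touches every value of both genes. Wild-type fold changes followed the order of the probes, repeating every 24 probes and again at the size of a full well plate, and shifted once between inferred plates 11 and 12. Over all tested probes, the r between wild-type changes of adjacent list entries was 0.636, and 0.0819 after trend removal; r here is across probes, which are not independent replicates. The plates are an inference from the probe order and are named in no label. Osmr falls in plate 13 (row 14, column 6) and Il1r1 in plate 14 (row 11, column 21), both after the split. In the 7 tested wells around Osmr the wild-type change ran from 0.24 to 0.80 (median 0.61), and in the 6 around Il1r1 from 0.11 to 0.64 (median 0.30). Both members lay in a neighbourhood of raised changes. Osmr was above all 7 of its neighbours, and Il1r1 (0.58) was not above all 6 of its own. Nothing is read from this order, because the wild-type change brought both genes into view. The results of both members are therefore also given with the position trend removed.

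**Figure D2:**
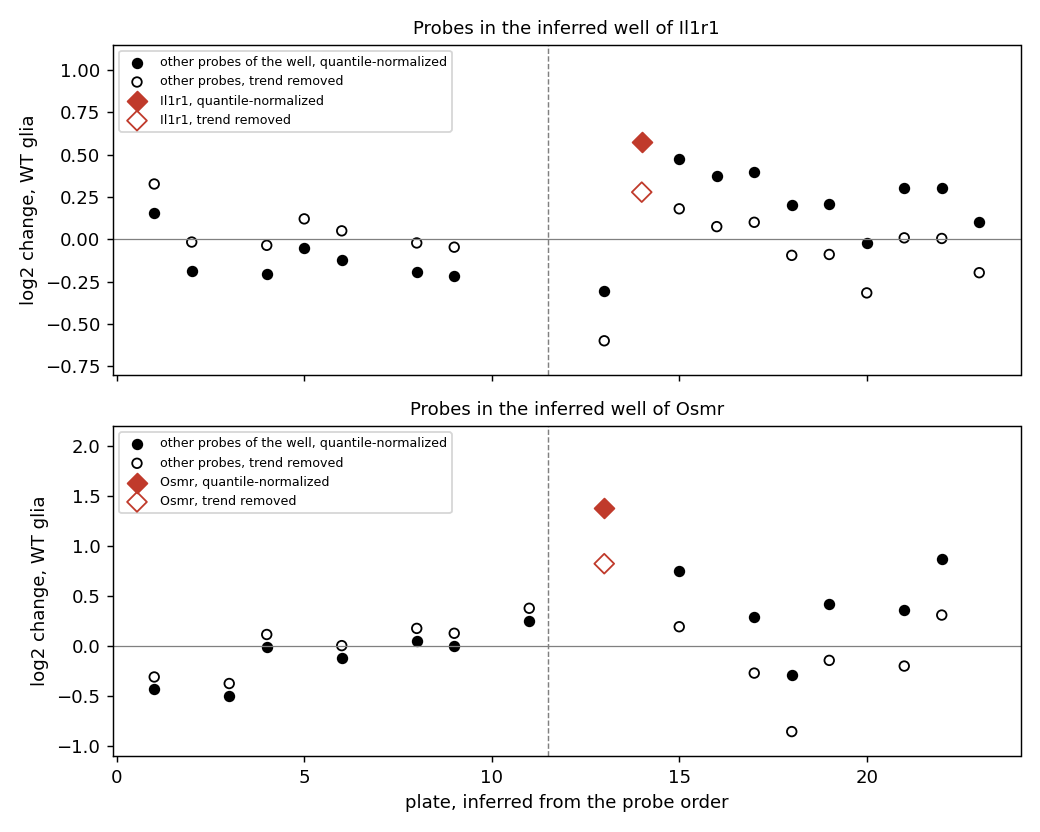
The log2 change with IL-1β in wild-type glia, by inferred plate. Shown are all tested probes that share the inferred well of Il1r1 (upper panel) or Osmr (lower panel). Filled symbols are quantile-normalized and open symbols have the trend removed. Diamonds are the members, and the dashed line marks the split between plates 11 and 12. Other probes of the Osmr well have a median change of 0.39 in plates 12 to 23 and -0.0078 in plates 1 to 11. Osmr lies above all of them in both versions, a description only, because the wild-type change brought Osmr into view.

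In wild-type glia Osmr was 2.61-fold higher with IL-1β. The log2 changes of the 3 pairs were 1.51, 1.65 and 1.00, with a mean of 1.38 ± 0.19 (SE, n = 3 pairs). All pairs had the same direction, and the lowest IL-1β array (15.82) exceeded the highest vehicle array (15.13). Of all 5713 tested probes 8.1% had such separated groups and 19.3% were higher in 3 of 3 pairs; since this response brought Osmr into view, nothing is read from these shares. Osmr ranked 11 of 5713 by size of increase. With the position trend removed the pairs had 1.14, 0.84 and 0.49, the mean was 0.82 ± 0.15 (SE), or 1.77-fold, and the rank was 20. The trend accounted for 0.56 of the log2 change, or 40.5% of it. Then the wild-type groups overlapped (4.38% of probes had separated groups in these values), although each pair was still higher with IL-1β, as in 15.4% of probes.

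Il1r1 was 1.49-fold higher with IL-1β in wild-type glia, a smaller and less even difference. The pairs had log2 changes of 0.49, 0.96 and 0.28 (mean 0.58 ± 0.18 SE, n = 3 pairs), and without wild-type replicate 2 the mean was 0.38. The treated arrays (14.29, 15.03 and 14.01) overlapped the vehicle arrays. With the trend removed the pairs had 0.24, 0.31 and 0.29 and the mean was 0.28 ± 0.12 (SE), or 1.21-fold, so that 51.5% of the change went with the trend. The rank was 373 of 5713 before and 392 after removal. In each wild-type pair Osmr changed more than Il1r1, by probe signal in both versions.

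**Figure D3:**
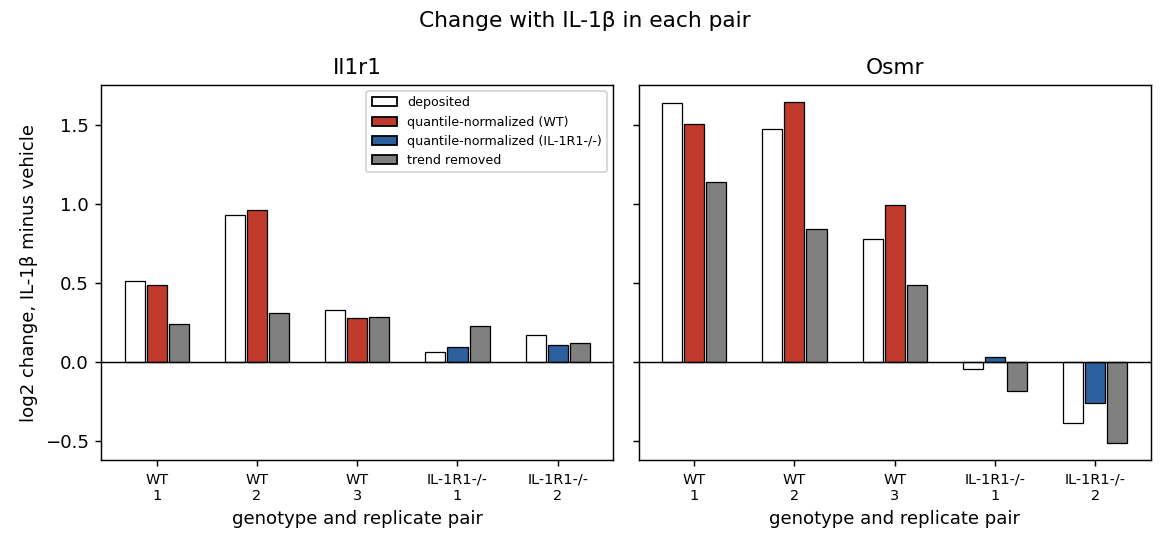
The log2 change from vehicle to IL-1β for Il1r1 (left) and Osmr (right) in each of the 5 pairs, from the deposited intensities (white bars), after quantile normalization (red for wild-type, blue for IL-1R1-/-) and with the position trend removed (grey). Osmr has bars of 1.00 to 1.65 in the normalized wild-type pairs and of 0.03 and -0.26 in the IL-1R1-/- pairs; Il1r1 bars lie above 0 in every pair.

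In IL-1R1-/- glia, which show the response to IL-1β without its signalling receptor, neither gene passed the test. Osmr had log2 changes of 0.03 and -0.26 in the 2 pairs, with a mean of -0.12 ± 0.23 (SE, n = 2 pairs, limma adjusted p = 0.923). The 95% interval ran from -0.60 to 0.37, whose upper end is a 1.29-fold increase. Osmr was lower in 1 of the 2 normalized pairs, and the share of probes with that outcome was not counted. Il1r1 had 0.09 and 0.11 (mean 0.10 ± 0.22 SE, adjusted p = 0.932, interval -0.38 to 0.58). Il1r1 was higher in both pairs, as were 31.9% of all probes, and 28.1% with the trend removed.

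With the position trend removed Osmr was lower with IL-1β in both IL-1R1-/- pairs, by -0.18 and -0.51 (mean -0.35 ± 0.18 SE), and it did not pass in limma (adjusted p = 0.85). Of all tested probes 28.8% were lower in 2 of 2 pairs in these values. Il1r1 then had 0.23 and 0.12 (mean 0.18 ± 0.14 SE, adjusted p = 0.952). Limma called 0% of the 5713 probes in IL-1R1-/- glia in either version, with 434 and 368 at an unadjusted p under 0.05.

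**Figure D4:**
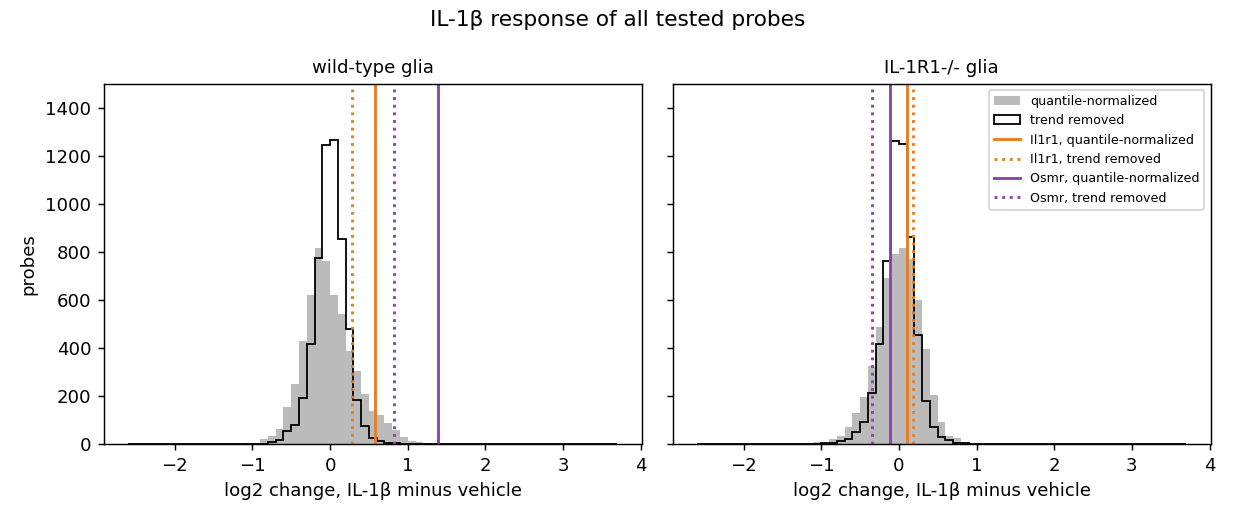
The number of probes at each log2 change with IL-1β, over all 5713 tested probes, in wild-type glia (left) and IL-1R1-/- glia (right); grey bars are quantile-normalized, the black outline has the position trend removed, and vertical lines mark Il1r1 and Osmr (solid before, dotted after trend removal). Osmr stands in the upper tail on the left, at 1.38 and 0.82, and within the bulk or the lower flank on the right, at -0.12 and -0.35.

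Set side by side, the Osmr response was larger in wild-type than in IL-1R1-/- glia by log2 1.5 ± 0.29 (SE, n = 3 and 2 pairs), a ratio of 2.83, and by 1.17 ± 0.23 with the trend removed. Every wild-type pair exceeded every IL-1R1-/- pair in both versions, as did 16.9% and 13.1% of all probes; nothing is read from these shares, because the wild-type pairs enter them. For Il1r1 the same difference was 0.48 ± 0.29 (0.28 without wild-type replicate 2), and 0.10 ± 0.19 with the trend removed. After trend removal the Il1r1 pairs of the genotypes were 0.24 to 0.31 and 0.12 to 0.23. The lowest wild-type pair (0.239) lay just above the highest IL-1R1-/- pair (0.230), an order that 13.1% of all probes had. These differences hold the response that brought the genes into view and were not tested here.

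Without IL-1β the genotypes did not differ detectably in Osmr. The IL-1R1-/- vehicle arrays (14.91 and 14.97) lay within the range of the wild-type vehicle arrays (14.17 to 15.13), and the difference was 0.30 ± 0.27 (SE, n = 2 and 3, limma adjusted p = 0.814, 95% interval -0.27 to 0.88). It was 0.068 without wild-type replicate 2 and 0.55 without wild-type replicate 3, and neither passed. It became -0.05 ± 0.28 with the trend removed (adjusted p = 0.983, interval -0.65 to 0.55), and that of Il1r1 became -0.04 ± 0.18 (adjusted p = 0.978). In this comparison limma called 0.0175% of probes, and none after trend removal, where 436 had an unadjusted p under 0.05. Under IL-1β the IL-1R1-/- mean of Osmr was lower by log2 -1.20 ± 0.27, that is 2.30-fold, and by -1.22 ± 0.28 with the trend removed. No wild-type IL-1β array overlapped an IL-1R1-/- one for Osmr, which held for 9.05% of all probes and, with the trend removed, for 10.3%; limma called 0.07% and 0.105% of probes in this comparison. For Il1r1 under IL-1β the difference was -0.38 ± 0.27 (leaving out wild-type replicate 2 gave -0.089, and replicate 3 gave -0.59), and -0.14 ± 0.18 with the trend removed, and the arrays overlapped in both versions.

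Other genes on the pathways of both receptors were read from lists. Of 56 further genes on 5 lists (IL-1 receptor family, IL-1 signalling, gp130 receptors and ligands, JAK-STAT, other cytokine receptors) that had a probe, 37 had a value on all 10 arrays. In limma 3 of the 37 rose and 0 fell, beside 4.55% and 1.63% of all probes (6.18% in either direction). The count was 1 when any of wild-type replicates 1 and 2 or IL-1R1-/- replicates 1 and 2 was left out, and 2 without wild-type replicate 3. Their median log2 change was 0.01, beside -0.04 over all probes. In IL-1R1-/- glia 0 of the 37 passed, and 1, Nfkbia, differed in its response between genotypes, where 0.158% of all probes did. With the trend removed 1 of the 37 rose, beside 0.298% of all probes.

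Of 10 tested IL-1 signalling genes Nfkbia, the inhibitor that retains NF-κB in the cytoplasm, rose. Its wild-type pairs had log2 changes of 2.26, 1.45 and 1.65 (mean 1.79 ± 0.19 SE, limma adjusted p = 0.000312), and the IL-1R1-/- pairs 0.39 and -0.29. Its second probe rose too (1.57, adjusted p = 0.00132), and both probes passed with the trend removed (1.62 and 1.56). Nfkbia was the only one of the 37 genes with a larger wild-type change than Osmr, in both versions. Traf6, the ubiquitin ligase below the receptor, had -0.23 and 0.12 by its 2 probes, and neither passed (adjusted p = 0.626 and 0.758), nor with the trend removed (-0.08 and 0.27, adjusted p = 0.904 and 0.487). Myd88, the receptor's adaptor, lacked a value on 2 arrays and was not tested; its wild-type pairs had -0.24, 0.19 and -0.14. The IL-1 family itself was represented by Il1f6, a ligand of the IL-36 group (-0.07, adjusted p = 0.873; 0.06 with the trend removed, adjusted p = 0.931), and by Il33, an alarmin measured on 8 arrays with wild-type pairs of 0.57, 0.18 and 0.44 and an IL-1R1-/- pair of -0.25. Il1rap, Il1r2, Il1rl1, Il18r1 and Irak1 had no probe of that symbol and were not analysed here.

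Around Osmr the array held few partners. Lifr, the leukaemia inhibitory factor receptor, which also uses gp130, had values on 6 arrays, with -1.02 in wild-type pair 3 and -0.56 and 0.27 in the IL-1R1-/- pairs. Ebi3, a subunit of IL-27, had 0.31 (adjusted p = 0.372), and 0.16 with the trend removed (adjusted p = 0.718). Il6st, Osm, Lif, Il6 and Socs3 had no probe of that symbol and were not analysed here. Among 18 tested JAK-STAT genes Socs2, a feedback inhibitor of cytokine receptors, rose by 0.66 ± 0.17 (SE, adjusted p = 0.0395), with 0.62, 0.86 and 0.49 in the pairs. It had 0.17 with the trend removed (adjusted p = 0.656). Jak1, a kinase bound by gp130 and OSMR, had -0.04 (adjusted p = 0.931), and 0.17 with the trend removed (adjusted p = 0.740). Stat3, the main transducer of gp130, was measured on 8 arrays, with 0.03 and 0.86 in wild-type pairs 1 and 2 and 0.58 and -0.23 in the IL-1R1-/- pairs. Cebpd, a STAT3 target, was measured on 4 arrays and was not tested.

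Among the other cytokine receptors 1 of 7 tested genes rose. Il4ra, the IL-4 receptor chain, had 0.75 ± 0.19 (SE, adjusted p = 0.0373) with pairs of 0.42, 1.19 and 0.59, and 0.19 with the trend removed (adjusted p = 0.632). Its second probe, measured on 8 arrays, had -0.09, -0.05 and -0.73 in the wild-type pairs. The Il4ra probe that rose shares the inferred well of Osmr. The remaining 6 receptors, Csf2rb, Epor, Ngfr, Tgfbr1, Tgfbr3 and Crlf3, did not pass.

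**Figure D5:**
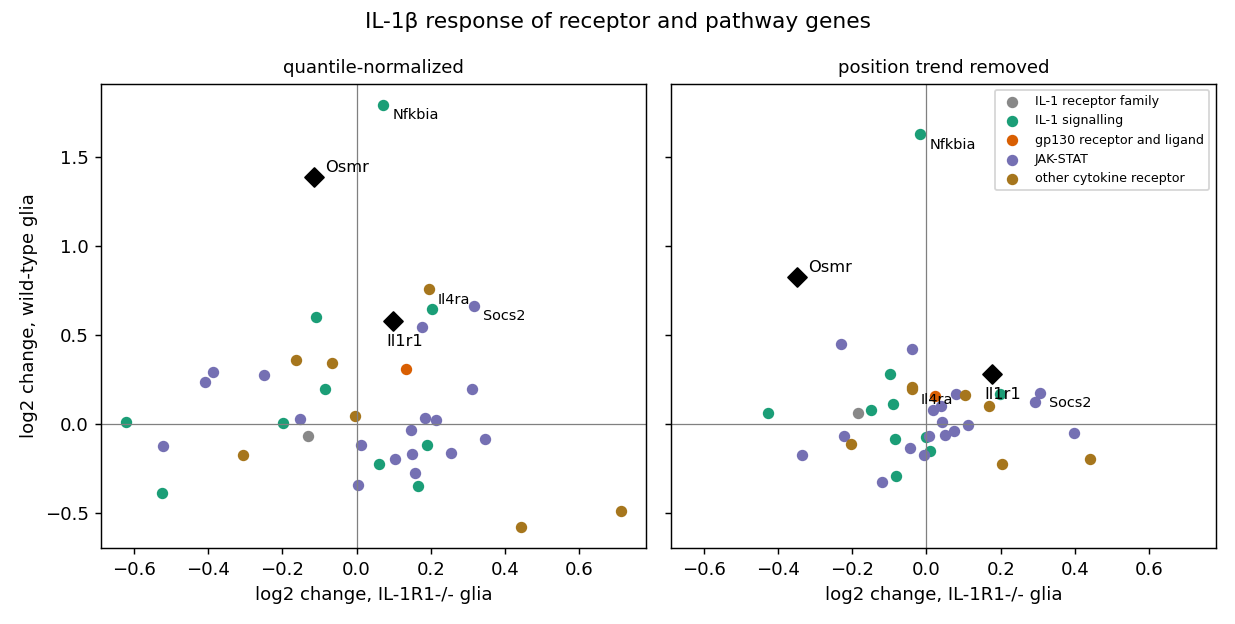
The log2 change with IL-1β in wild-type glia against that in IL-1R1-/- glia for the 37 tested pathway genes (points coloured by list, the brightest probe of each gene) and for Il1r1 and Osmr (black diamonds), after quantile normalization (left) and with the position trend removed (right). Nfkbia and Osmr stand above the rest on both sides, at 1.79 and 1.38 and then at 1.62 and 0.82, while Il4ra, Socs2 and Il1r1 come down from 0.75, 0.66 and 0.58 to 0.19, 0.17 and 0.28.

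Markers of the cell types in such cultures were checked beside these results; in bulk RNA fewer cells of a type and less RNA per cell cannot be told apart. Of 11 astrocyte markers 3 were tested, Glul, Slc1a2 and Sox9, and their summed normalized intensity was 91283 to 96667 in wild-type IL-1β arrays and 123558 to 150410 in wild-type vehicle arrays. In IL-1R1-/- glia these ranges, 83203 to 122681 and 92186 to 134281, overlapped. The share of single probes separated downward in wild-type glia was not counted, and 8.1% were separated upward. The sums were not taken with the trend removed. Slc1a2 had 0.10 in wild-type glia (limma adjusted p = 0.825) and Sox9 had -0.20 (adjusted p = 0.614). Glul, the glutamine synthetase, fell in the wild-type comparison (-0.84, limma adjusted p = 0.0291) and not with the trend removed (-0.50, adjusted p = 0.196), and its second probe had -0.10. For 5 of 16 microglia and macrophage markers the wild-type sums were 239522 to 330262 with IL-1β and 305039 to 316837 with vehicle. In IL-1R1-/- glia they were 288085 to 325995 and 343320 to 437799, without overlap between 2 and 2 arrays. None of the 5 passed in either genotype. The share of single probes with such separated IL-1R1-/- groups was not counted, and 31.3% were lower in both IL-1R1-/- pairs. Among 5 of 10 endothelial and mural markers Emcn rose (0.84, adjusted p = 0.0187; 0.30 with the trend removed, adjusted p = 0.406), and the wild-type sums overlapped, at 85410 to 115383 with IL-1β and 72316 to 107327 with vehicle. Of the 3 probes of Rgs5, a pericyte gene, 1 that is not its brightest rose (0.69, adjusted p = 0.0389), and it did not pass with the trend removed (0.13, adjusted p = 0.805). None of the tested oligodendrocyte-lineage (3), neuronal (2) or fibroblast (1) markers passed. Every tested probe had an intensity on all 10 arrays by selection, which does not show that a cell type was present. The astrocyte marker Gfap had no probe of that symbol, and the part of these shifts in the Osmr and Il1r1 values was not tested.

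The genes whose profiles most resembled the members over the 10 arrays were ranked by the smaller of Pearson's r in the normalized and in the trend-removed values. These r describe arrays that share pairs, treatments and the position trend, and no p is attached. For Osmr they were Iigp1, an interferon-inducible GTPase (0.926 and 0.918), Gbp9, a guanylate-binding GTPase (0.890 and 0.861), Nufip2, an RNA-binding protein (0.900 and 0.856), Steap4, a metalloreductase (0.949 and 0.855), and Lcn2, a siderophore-binding protein (0.878 and 0.850). The wild-type changes of Steap4 and Lcn2 were larger than that of Osmr, at 2.31 and 2.89, and those of Iigp1, Gbp9 and Nufip2 smaller, at 0.87, 1.13 and 0.86. With the trend removed these changes were 2.05 for Steap4, 3.19 for Lcn2, 0.31 for Iigp1, 0.92 for Gbp9 and 0.26 for Nufip2. Iigp1 shares the inferred well of Osmr. For Il1r1 they were 1700097N02Rik (0.930 and 0.916), Crp, an acute phase protein (0.923 and 0.874), G3bp1, a stress granule protein in the same inferred well (0.956 and 0.845), Gata4, a transcription factor (0.814 and 0.827), and Mapk6, an atypical MAP kinase (0.838 and 0.807). Their wild-type changes ran from 0.22 to 0.98, and from 0.16 to 0.35 with the trend removed. Between Il1r1 and Osmr themselves r was 0.452 in the normalized and 0.165 in the trend-removed values.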

How the data were processed

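Expression was measured with radio-labelled cDNA, made per the labels by reverse transcription of DNase-treated total RNA, on arrays of 8734 probes. The deposited values are linear spot intensities; no label or header names the software, background correction or normalization behind them. Probes were named by the platform annotation (7153 probes with 1 symbol, 387 with several, 1194 with none). Of the 12 deposited columns 10 were used. Each column of IL-1R1-/- replicate 3 repeated another column up to a constant factor. Its IL-1β column did so with IL-1R1-/- vehicle replicate 1 in 6531 of their 6584 common probes. Its vehicle column did so with wild-type vehicle replicate 1 in 5959 of 5982. The tolerance was a log2 difference of 1e-04, and no other pair of columns exceeded 0.0857%. The values do not tell which column of such a pair is the original. Leaving out replicate 3 was a choice, so the kept vehicle columns of replicate 1 could themselves be the copies, under a wrong genotype or treatment label. Replicate 3 is called the copies, and its kept partners the sources, as names only.

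Values were quantile-normalized on the log2 scale over the 5713 probes (65.4%) present on all 10 arrays. In limma 3.58.1 (R 4.3.3), a single model of all 10 arrays held the pairs as blocks and a treatment effect for each genotype, with a shared residual variance (lmFit, eBayes). Genotype differences used 4 group means with pair as a random block (statmod 1.5.0, correlation 0.388; 0.457 with the trend removed). P-values are two-sided, adjusted by Benjamini and Hochberg over all 5713 probes, with a threshold of 0.05. For trend removal, deviations of an array from the all-array average were smoothed by inferred plate row and column (loess, span 0.2, degree 1) in each part and subtracted. The model fit was tested on simulated arrays with known changes in wild-type glia and no position trend. The trend removal and the ranking of similar genes were not tested in that way.

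The pairing comes from the design text and the replicate numbers; the deviations of paired arrays from their group means correlated at 0.468, 0.582 and 0.261 in the wild-type pairs and, as 1 mirrored value, at 0.562 in the IL-1R1-/- pairs. The members, the lists, the markers and the alternatives were chosen with earlier results of these data known. The rule named both members, pathway genes past the threshold, 16 fixed pathway genes where measured, and the 5 genes most like each member. The brightest probe of a gene stood for it in counts. Values of genes with gaps come from a normalization that kept probes with at least 6 arrays. Alternatives varied the normalization, the trend, the block, the arrays and the probes kept. With so few arrays, their number sets the precision. Il33, Il1f6, Ebi3 and the receptors that did not pass were named after their values were seen.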

Additional observations from a re-analysis of the deposited data

Results flagged for a closer look

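In the trend-removed values Osmr was higher with IL-1β in all 3 wild-type pairs, as were 15.4% of all probes. It was lower in both IL-1R1-/- pairs, as were 28.8%, and that change did not pass (limma adjusted p = 0.85). Before trend removal the normalized IL-1R1-/- pairs had 0.03 and -0.26. The mean trend-removed changes of the genotypes differed by log2 1.17, and this difference was not tested. Nfkbia responded more in wild-type than in IL-1R1-/- glia by both of its probes, by log2 1.72 (limma adjusted p = 0.0423) and 1.90 (adjusted p = 0.0315).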

How the results depend on the processing

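Osmr and Il1r1 were higher with IL-1β in wild-type glia in all 16 other settings run for each, with log2 changes of 0.82 to 1.58 and 0.28 to 0.72. Removing the position trend, with or without the replicate block, moved the wild-type Osmr change to 0.82, its difference between genotypes to 1.17 and that of Il1r1 to 0.10. It also turned the vehicle difference between genotypes to -0.047 for Osmr and -0.037 for Il1r1, and neither passed. Without normalization between arrays the genotype difference under IL-1β turned to 0.66 for Osmr and 1.44 for Il1r1, and that in vehicle glia moved to 2.17 and 1.91. With median centring these were -1.14 and -0.36 under IL-1β, and 0.39 and 0.13 in vehicle glia. The median intensity was 32303 and 58788 in the IL-1R1-/- vehicle arrays, and 18006, 4649 and 24314 in the wild-type ones. The cause was not tested. On all 12 columns the IL-1R1-/- response of Osmr was 0.014. Leaving out 1 pair at a time gave -0.26 to 0.032 for that response, -0.0028 to 0.20 for the vehicle difference of Il1r1, 0.068 to 0.55 for that of Osmr, and -0.59 to -0.089 for the Il1r1 difference under IL-1β. Leaving out the replicate block left every member's log2 change as it was and widened the SE of the wild-type change from 0.183 to 0.251 for Il1r1 and from 0.185 to 0.239 for Osmr; the wild-type count of called probes was then 14 in place of 353.

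That count was 24 with the trend removed (8 also without the block), 150 on all 12 columns, 926 with gaps kept, 175 with wild-type arrays alone, 109 without the sources of the copied columns (1 also without the block), and 28, 53 and 203 without wild-type replicate 1, 2 and 3. The pathway genes tested need not be the same 37 with gaps kept, or with the dimmest probes left out (244 of all probes called). In wild-type glia the count of pathway genes that passed was 4 without normalization (412 of all probes called). It was also 4 with median centring (396) and with gaps kept (926), and 3 on all 12 columns (150). It was 1 with the trend removed, without the block, without the dimmest probes, with wild-type arrays alone and without the copies' sources, 0 when the block was dropped as well as the trend or those sources, and 1 to 2 without a single pair. The IL-1R1-/- count of 0 was 108 with those arrays alone, 177 with median centring, 153 without normalization and 1 without the copies' sources. The count of 9 for the difference ran from 0 to 264, the count of 1 in vehicle glia from 0 to 102, and the count of 4 under IL-1β from 0 to 6. Without the sources of the copies the random block had no correlation estimate; with no block, and the lone IL-1R1-/- pair assumed to vary like the others, the genotype differences were 0.31 (Osmr) and 0.17 (Il1r1) in vehicle glia and -1.1 and -0.33 under IL-1β. Of the 5 genes most like Osmr, 4 were also in the first 5 by the normalized values alone and 1 by the trend-removed values; for Il1r1 these were 1 and 2. The settings without the copies' sources and the trend removal without block were chosen after seeing the data.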
